A study of Mus musculus with 12 samples.

Results

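Glycolysis turns glucose into pyruvate and lactate, and the transcripts described here encode 10 of its enzymes in tumour-associated macrophages (TAMs) of a mouse glioma. They are the hexokinases Hk1, Hk2 and Hk3, the glucose phosphate isomerase Gpi1, the phosphofructokinases Pfkl and Pfkp, the aldolase Aldoa, the enolase Eno1, the pyruvate kinase Pkm and the lactate dehydrogenase Ldha. They were chosen by symbol as glycolytic enzymes, kept apart from the hypoxia-induced genes with which such lists are often pooled, and all 10 are among the 54532 genes of the count table and the 15014 that passed the filter on low counts.

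The tested cells were rhodamine-positive TAMs, 1 sort from each of 6 mice, and they were compared with rhodamine-negative TAMs sorted from the same 6 tumours. All mice, and so both groups, carry the genotype labelled Ntv-a_Ink4a/Arf_KO and received the treatment labelled Rhodamine_PFCE_NP, intravenous perfluoro-crown-ether nanoparticles that carry the dye rhodamine, 24 hours before the tumour was taken. Cells were gated as CD45-positive, CD11b-positive and Ly6C-negative, and each sort held more than 2000 cells. By their labels 4 mice (1 to 4) are male and 2 (5 and 6) female, no age is given, and no mouse without nanoparticles is included, so rhodamine separates cells within a treated tumour. The comparison asks how TAMs that had taken up the dye-labelled particles differ from TAMs of the same tumour that had not.

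Macrophages are among the cells that rely strongly on glycolysis when activated. Hexokinase traps glucose in the cell as glucose 6-phosphate, phosphofructokinase commits it to glycolysis and is the main point of control, and pyruvate kinase and lactate dehydrogenase finish the route to lactate. Several steps are served by isozymes from separate genes. Hk1 is the widespread hexokinase, Hk2 the inducible form of muscle, fat and activated cells, and Hk3 a form found mainly in myeloid cells. Pfkl, Pfkm and Pfkp encode the liver, muscle and platelet types of phosphofructokinase subunit, which assemble into mixed tetramers.

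Promoters are shown for Pfkp, the phosphofructokinase isozyme that fell, for Hk3, the hexokinase isozyme that rose, and for Hk2, the hexokinase isozyme whose fold change lay nearest 0. Each is the 250 bases upstream of the RefSeq start site (GRCm38.p6), written in the direction of transcription, with ACGTG or GCGTG on either strand, the core of the hypoxia response element, in capitals.
Pfkp chr13:6648772-6649021 minus strand: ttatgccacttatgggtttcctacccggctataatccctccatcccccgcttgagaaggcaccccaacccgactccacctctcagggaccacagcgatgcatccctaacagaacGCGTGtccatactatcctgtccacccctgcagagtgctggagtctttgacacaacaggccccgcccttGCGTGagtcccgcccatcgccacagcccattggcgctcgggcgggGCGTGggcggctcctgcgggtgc
Hk3 chr13:55021386-55021635 minus strand: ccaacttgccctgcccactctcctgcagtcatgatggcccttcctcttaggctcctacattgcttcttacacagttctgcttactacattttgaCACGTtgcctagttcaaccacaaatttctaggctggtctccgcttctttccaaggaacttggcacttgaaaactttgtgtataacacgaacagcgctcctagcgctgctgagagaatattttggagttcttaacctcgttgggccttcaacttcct
Hk2 chr6:82774455-82774704 minus strand: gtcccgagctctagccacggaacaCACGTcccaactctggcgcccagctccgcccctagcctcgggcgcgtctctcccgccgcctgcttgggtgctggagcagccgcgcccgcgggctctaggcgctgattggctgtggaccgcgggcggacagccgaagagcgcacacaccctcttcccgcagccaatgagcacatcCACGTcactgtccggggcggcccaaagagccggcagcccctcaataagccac
Pfkp held 3 such matches, Hk3 held 1 and Hk2 held 2. RefSeq lists 17 start-site windows for the 10 enzymes, and 13 of them, or 76.5%, held at least 1 match, against 38.6% of all 32851 windows of this length. Some of the 17 overlap, for Eno1 and for Aldoa, so that the same match is counted in more than 1 window. The difference between these shares was not tested. At least 3 matches, as in Pfkp, were present in 6.58% of all windows. In Ldha, 1 of the windows held 5 matches. Most of these lie in the E-box CACGTG, which reads the same on both strands and so gives a match on each. The E-box was found in 6.02% of all windows. TATAAA was present in no window of the enzymes, against 7.59% of all windows. A match is a string of letters and was not tested as a binding site.

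The libraries held 13073189 to 17379314 counts in rhodamine-positive and 13421387 to 16167832 in rhodamine-negative sorts. Macrophage markers, among them Csf1r, Cd68 and C1qa, were abundant in every library, with a summed level of 11585 to 13270 CPM (counts of a gene after scaling every library to a common total) in rhodamine-positive and 5752 to 10514 CPM in rhodamine-negative sorts. Markers were called by the same test as the enzymes below, in which 13.0% of all genes were higher and 13.2% lower. Of 9 macrophage markers, 5 rose and 1, Ptprc, fell. All 8 dendritic cell markers fell, and their sums were 279 to 388 CPM in rhodamine-positive and 546 to 1819 CPM in rhodamine-negative sorts, so the groups did not overlap. Monocyte markers summed to 32.2 to 79.8 CPM in rhodamine-positive and 228 to 574 CPM in rhodamine-negative sorts (3 of 5 lower). Natural killer cell markers summed to 2.30 to 10.9 CPM in rhodamine-positive and 40.5 to 86.7 CPM in rhodamine-negative sorts. Most of that sum was Klrd1, the 1 marker measured, which was lower, with 6.05 CPM in rhodamine-positive and 49.5 CPM in rhodamine-negative sorts. Ncr1, Klrb1c, Prf1 and Gzma were under the count filter, with at most 38 counts in a library. Basophil and mast cell markers summed to 0.187 to 21.1 CPM in rhodamine-positive and 5.91 to 404 CPM in rhodamine-negative sorts (3 of 3 measured lower), and glioma and oligodendrocyte markers to 43.4 to 132 CPM in rhodamine-positive and 95.0 to 148 CPM in rhodamine-negative sorts (4 of 7 lower). No marker of the neutrophil, T cell, B cell, erythroid, endothelial, astrocyte and neuron lists was called lower, and their sums overlapped between the groups. Mmp8, a neutrophil marker, was called higher. The sorts are populations measured in bulk, so fewer cells of a type and less RNA per cell cannot be told apart. The part of these other cell types in the values below was not tested.

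Across the pathway, 7 of the 10 enzymes were higher in TAMs that carried nanoparticles, 1 was lower and 2 did not pass the test. The 7 were Hk3, Gpi1, Pfkl, Aldoa, Eno1, Pkm and Ldha, at 1.25 to 1.60 times the rhodamine-negative level, and each was higher in all 6 mice. Pfkp alone fell, to a level 3.31-fold lower, in all 6 mice, and Hk1 and Hk2 did not pass. By edgeR's quasi-likelihood test with the mouse as a block and Benjamini-Hochberg adjustment over all genes tested, 13.0% of the 15014 genes were called higher and 13.2% lower at a threshold of 0.05, 26.2% in all. A rise in all 6 mice, with no test attached, was seen for 14.2% of all genes and a fall in all 6 for 14.0%. The median log2 fold change, rhodamine-positive over rhodamine-negative, was 0.34 over the 10 enzymes and -0.02 over all genes tested. Libraries were scaled by TMM, a trimmed mean of log ratios between libraries. Under library size alone the median of all genes lay at -0.18 on the log2 scale, and 4 enzymes were called higher, beside 5.67% of all genes, with Gpi1, Pfkl and Ldha no longer past the threshold (adjusted p = 0.145, 0.115 and 0.0999). Relative to that shifted median, their log2 fold changes were 0.34, 0.36 and 0.36.

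**Figure D1:**
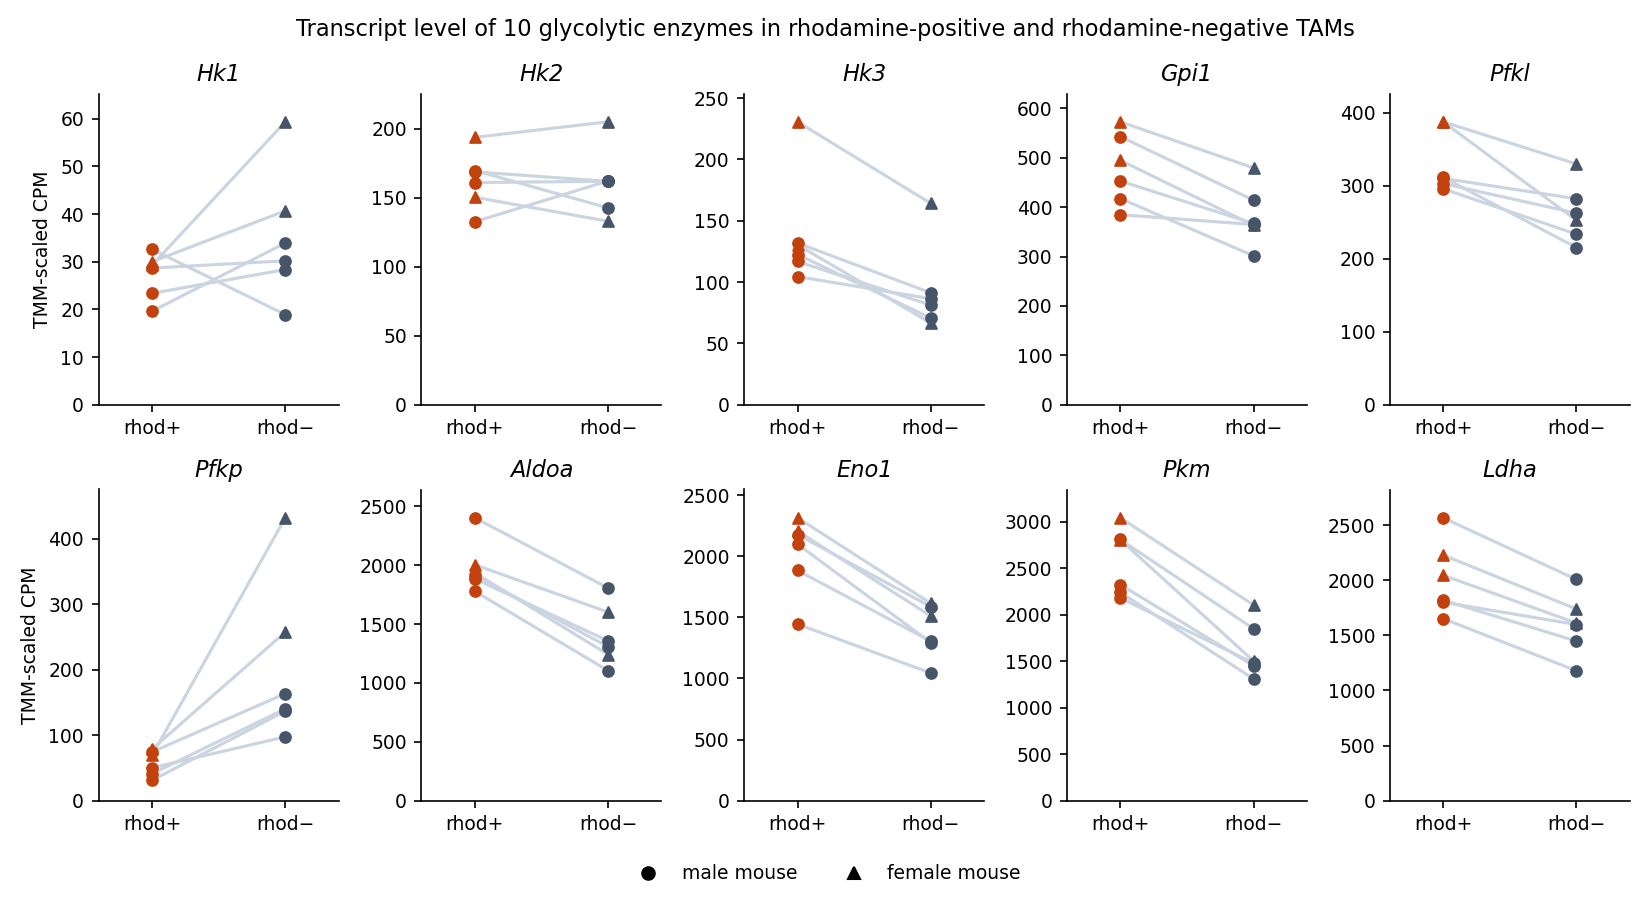
Transcript level of each of the 10 enzymes (TMM-scaled CPM, vertical axis starting at 0) in the rhodamine-positive (left) and rhodamine-negative (right) sort of each mouse, joined by a line, with circles for male and triangles for female mice. Lines run lower toward rhodamine-negative in all 6 mice for Hk3, Gpi1, Pfkl, Aldoa, Eno1, Pkm and Ldha, run higher for Pfkp in all 6, and cross for Hk1 and Hk2.

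At hexokinase, the entry step, Hk3 rose and neither Hk1 nor Hk2 passed the test. Hk3 (ENSMUSG00000025877, chromosome 13, 55005985 to 55021385, minus strand, mm10) had a lowest, median and highest level of 104, 126 and 231 CPM in rhodamine-positive sorts, against 66.5, 83.8 and 164 CPM in rhodamine-negative sorts. The groups overlapped because both sorts of mouse 6 stood above the same sort of every other mouse, while within each mouse the rhodamine-positive sort was higher. The mean was 139 ± 45.8 CPM in rhodamine-positive and 93.3 ± 35.9 CPM in rhodamine-negative sorts (SD, n = 6), a log2 fold change of 0.60 ± 0.10 (SE, edgeR adjusted p = 0.00126). The adjusted p of Hk3 was 0.0921 in a fit that ignored the mouse.

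Hk2 (ENSMUSG00000000628, chromosome 6, 82725025 to 82774454, minus strand) had 133, 165 and 194 CPM as its lowest, median and highest level in rhodamine-positive sorts and 133, 162 and 205 CPM in rhodamine-negative sorts. These ranges are nearly the same, and Hk2 was higher in 3 of 6 mice. Its log2 fold change of 0.02 ± 0.09 (SE) did not pass (edgeR adjusted p = 0.899). Hk1 (ENSMUSG00000037012, chromosome 10, 62268855 to 62379908, minus strand) had 19.6, 29.0 and 32.6 CPM in rhodamine-positive sorts, against 18.9, 32.1 and 59.4 CPM in rhodamine-negative sorts. Mouse 4 went the other way from the rest, with 32.6 CPM in its rhodamine-positive and 18.9 CPM in its rhodamine-negative sort, and the widest drop was in mouse 5, with 29.2 CPM in its rhodamine-positive and 59.4 CPM in its rhodamine-negative sort. Over the 6 mice the log2 fold change of Hk1 was -0.31 ± 0.19 (SE, adjusted p = 0.254). Without mouse 4 it was -0.52 and passed (adjusted p = 0.0271), so this mouse decides the call. Mouse 4 is also the mouse whose sorts were not matched best by their own number. Their deviations from the group means correlated at r = 0.0775, against up to 0.187 with another mouse.

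The isozymes were set against each other within each mouse, as the log2 change of 1 transcript between the sorts minus that of another, in 4 comparisons. Hk3 changed more than Hk2 by 0.58 ± 0.30 and more than Hk1 by 0.90 ± 0.65 (log2, mean ± SD, n = 6), each in 6 of 6 mice, with an exact two-sided sign-flip permutation p of 0.0312, the smallest that 6 mice allow, and 0.0417 after adjustment over the 4. Mouse 2 had the smallest gap between Hk3 and Hk2, at 0.02, and mouse 4 the smallest between Hk3 and Hk1, at 0.01. Hk2 and Hk1 differed by 0.32 ± 0.71, in 4 of 6 mice, which did not pass (exact permutation p = 0.312, the same after adjustment). Per length of transcript, Hk3 made up 53.4 ± 5.23% of the Hk1, Hk2 and Hk3 transcripts in rhodamine-positive and 42.1 ± 5.77% in rhodamine-negative sorts (SD, n = 6), and its share was larger in rhodamine-positive sorts of all 6 mice. Hk2 made up 37.6 ± 4.73% in rhodamine-positive and 44.1 ± 5.29% in rhodamine-negative sorts, and Hk1 9.01 ± 1.59% in rhodamine-positive and 13.9 ± 6.04% in rhodamine-negative sorts. The summed hexokinase level per length was 79.9 ± 17.6 CPM per kilobase in rhodamine-positive and 67.4 ± 15.7 CPM per kilobase in rhodamine-negative sorts, higher in 6 of 6 mice.

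Phosphofructokinase, the control step, had isozymes that moved in opposite directions. Pfkp (ENSMUSG00000021196, chromosome 13, 6579768 to 6648777, minus strand) had 31.0, 59.6 and 78.6 CPM as its lowest, median and highest level in rhodamine-positive sorts, against 97.4, 152 and 432 CPM in rhodamine-negative sorts. The groups did not overlap, which in the same direction held for 4.67% of all genes. Its mean was 57.4 ± 19.4 CPM in rhodamine-positive and 204 ± 123 CPM in rhodamine-negative sorts (SD, n = 6). Pfkp fell by 1.73 on the log2 scale (SE 0.19, edgeR adjusted p = 9.08e-05), and a fold change at least as low was fitted for 2.82% of the genes tested. The drop differed between mice, with a rhodamine-negative level 1.94 times the rhodamine-positive one in mouse 4 and 6.25 times in mouse 5. Both mice with the highest rhodamine-negative level, mice 5 and 6 at 432 and 257 CPM, are the females.

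Pfkl (ENSMUSG00000020277, chromosome 10, 77986947 to 78010083, minus strand) had 296, 311 and 388 CPM in rhodamine-positive sorts and 215, 257 and 329.7 CPM in rhodamine-negative sorts. The groups overlapped through the rhodamine-negative sort of mouse 6, and each mouse was higher in its rhodamine-positive sort. Its mean was 333 ± 43.0 CPM in rhodamine-positive and 263 ± 40.2 CPM in rhodamine-negative sorts (SD, n = 6), a log2 fold change of 0.34 ± 0.09 (SE, edgeR adjusted p = 0.0140). In the fit without the mouse as a block it did not pass (adjusted p = 0.0598), nor in male mice alone (0.30 on the log2 scale, adjusted p = 0.0627). Pfkm, the muscle-type subunit and no member of the 10, stood at 8.86 ± 1.23 CPM in rhodamine-positive and 7.88 ± 0.72 CPM in rhodamine-negative sorts.

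Within each mouse, the log2 change of Pfkp lay below that of Pfkl, with a difference of -2.07 ± 0.70 (mean ± SD, n = 6, range -3.26 to -1.27, exact permutation p = 0.0312 and 0.0417 after adjustment over the 4 isozyme comparisons), a 4.20-fold shift in their ratio. Per length, Pfkp made up 12.8 ± 3.15% of phosphofructokinase transcripts in rhodamine-positive and 37.8 ± 11.4% in rhodamine-negative sorts (SD, n = 6). The highest share among rhodamine-positive sorts, 17.1%, lay under the lowest among rhodamine-negative sorts, 28.1%. In mouse 5, Pfkp was the larger part of the rhodamine-negative sort at 59.6%, and Pfkl was the larger part in the other 11 libraries. Counted over all annotated exons of each gene in place of its main transcript, a length basis chosen after seeing the data, the Pfkp shares were 7.42% in rhodamine-positive and 25.3% in rhodamine-negative sorts. Summed over Pfkl, Pfkm and Pfkp, the level per length was 106 ± 15.4 CPM per kilobase in rhodamine-positive and 122 ± 34.8 CPM per kilobase in rhodamine-negative sorts, with a mean log2 ratio of -0.17 ± 0.24 (SD, n = 6) that was above 0 in 1 of 6 mice. On the all-exon basis that mean log2 ratio was 0.01 ± 0.17.

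**Figure D2:**
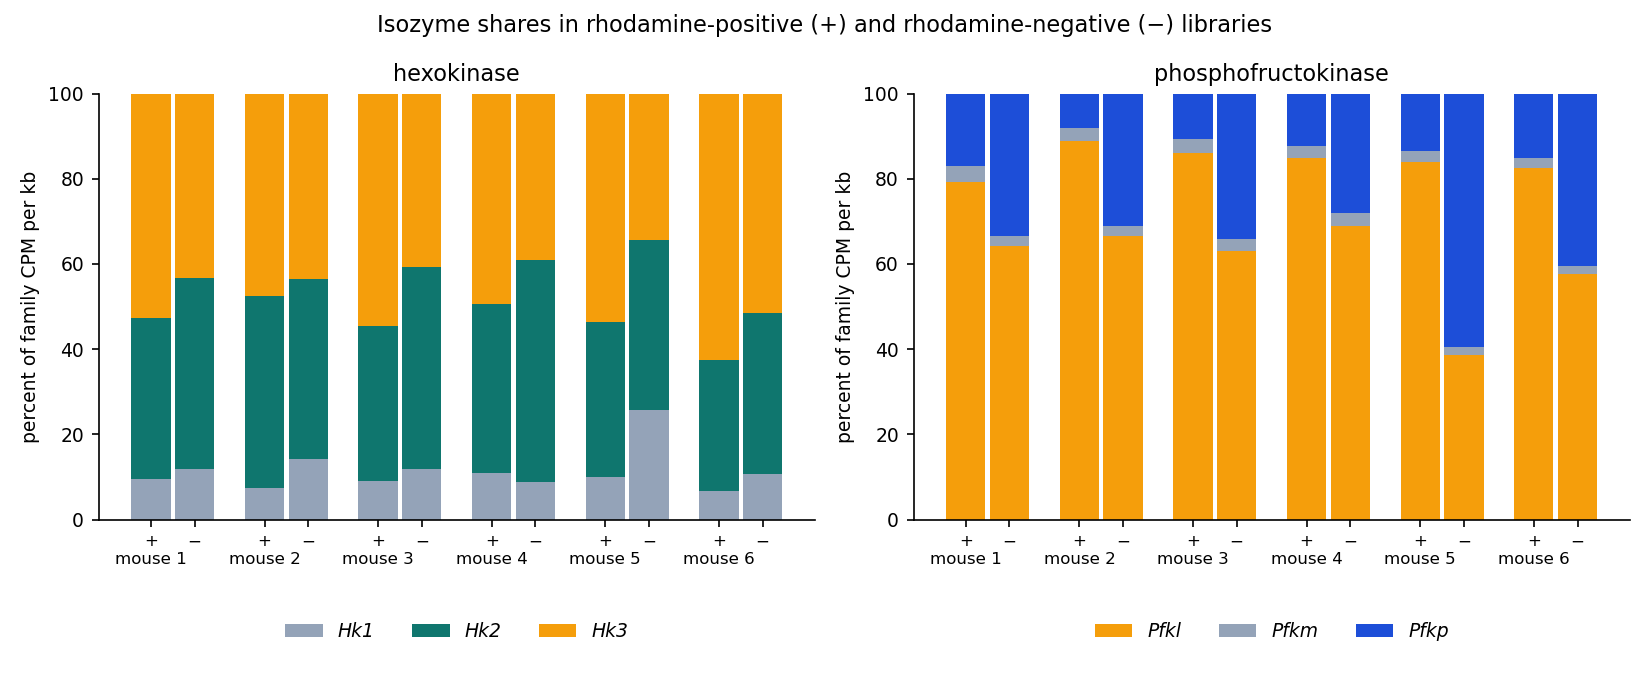
Share of each isozyme in the summed transcript level per length of its family (percent of CPM per kilobase), for hexokinase (left) and phosphofructokinase (right), with the rhodamine-positive (+) bar left of the rhodamine-negative (−) bar of each mouse. Pfkp takes 8.19 to 17.1% of phosphofructokinase in rhodamine-positive and 28.1 to 59.6% in rhodamine-negative sorts, and Hk3 takes 47.5 to 62.5% of hexokinase in rhodamine-positive and 34.3 to 51.6% in rhodamine-negative sorts.

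Marker sums of several other cell types, though not of all that were examined, fell beside Pfkp in each mouse. Pfkp changed on the log2 scale by -1.14, -2.14, -1.77, -0.96, -2.64 and -1.71 in mice 1 to 6. Summed dendritic cell markers changed by -1.34, -1.76, -1.18, -0.78, -2.35 and -1.79, and summed monocyte markers by -2.92, -2.86, -2.40, -1.71, -3.10 and -2.38. For Pfkp and for both of these sums, mouse 4 had the smallest and mouse 5 the largest change. Mouse 5 also had the largest change of Hk1 (-1.02), Hk3 (0.97), Pfkl (0.62) and Pkm (0.90), but not of Hk2, Gpi1, Aldoa, Eno1 or Ldha. Its rhodamine-negative library stood apart over all genes. The chi-square per degree of freedom was 77.8 to 126 against the other rhodamine-negative libraries, and at most 50.1 among those. The sums of natural killer cell markers (-4.24 to -2.03), basophil and mast cell markers (-8.47 to -1.63), platelet and megakaryocyte markers (-2.79 to -0.51) and glioma and oligodendrocyte markers (-1.32 to -0.01) were also lower in all 6 mice. Their largest changes, in the same order, were in mice 6, 2, 5 and 6. Their smallest were in mice 3, 4, 1 and 4. Summed macrophage markers changed by 0.34 to 0.49 in mice 1 to 4 and 6 and by 1.06 in mouse 5. The macrophage sum, which rose, thus also changed most in mouse 5. Its smallest change, 0.336 in mouse 4, was nearly the same as the 0.340 in mouse 6. In the platelet and megakaryocyte list, which bears the name of the Pfkp subunit type, the sums were 3.49 to 5.30 CPM in rhodamine-positive and 7.13 to 35.9 CPM in rhodamine-negative sorts and did not overlap. Of its 4 markers, Itga2b fell by 2.95 on the log2 scale, with 1.34 CPM in rhodamine-positive and 12.2 CPM in rhodamine-negative sorts, Gp9 did not pass, Ppbp had 0 to 6 counts and Gp1bb 0 counts in every library. The part of any of these cell types in the Pfkp difference was not tested.

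**Figure D3:**
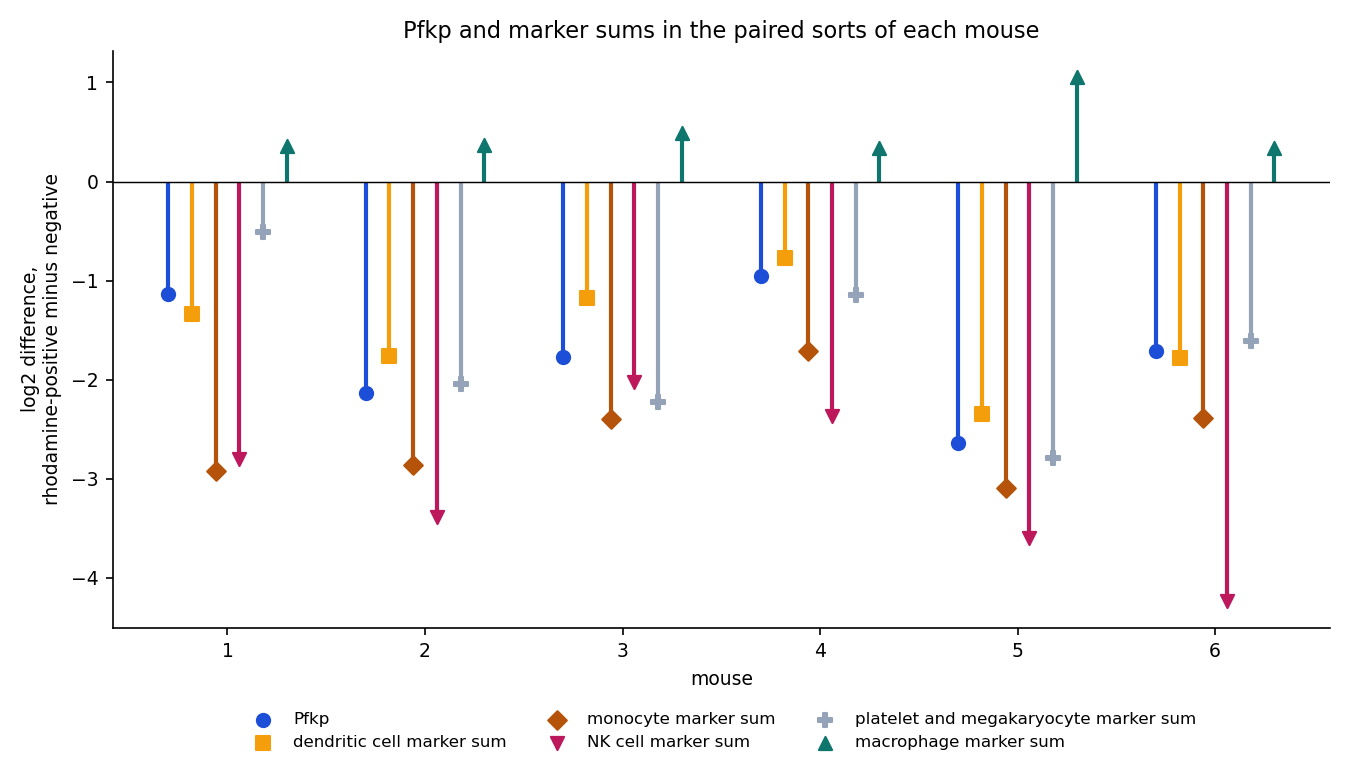
Log2 difference, rhodamine-positive minus rhodamine-negative (vertical axis), of Pfkp and of the summed markers of dendritic cells, monocytes, natural killer (NK) cells, platelets with megakaryocytes, and macrophages in each of the 6 mice. Pfkp, from -0.96 in mouse 4 to -2.64 in mouse 5, lies below 0 in every mouse, as do the sums other than the macrophage sum, which lies above 0. The NK cell sum is mostly Klrd1.

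The other 5 enzymes, which serve the steps between the control points and from there to lactate, all rose, by 0.32 to 0.68 on the log2 scale. Gpi1 (ENSMUSG00000036427, chromosome 7, 34201330 to 34230336, minus strand), which converts glucose 6-phosphate to fructose 6-phosphate, had 385, 474 and 573 CPM as its lowest, median and highest level in rhodamine-positive sorts and 301, 366 and 479.5 CPM in rhodamine-negative sorts. The groups overlapped, and the gap was smallest in mouse 2, with 385 CPM in its rhodamine-positive and 365 CPM in its rhodamine-negative sort. Its log2 fold change was 0.32 ± 0.08 (SE, edgeR adjusted p = 0.0134), and it passed neither in the unpaired fit (adjusted p = 0.0938) nor in male mice alone (0.30, adjusted p = 0.0522). Aldoa (ENSMUSG00000030695, chromosome 7, 126795234 to 126800751, minus strand) splits fructose 1,6-bisphosphate into triose phosphates. It stood at 1987 ± 217 CPM in rhodamine-positive and 1404 ± 256 CPM in rhodamine-negative sorts (SD, n = 6), a log2 fold change of 0.51 ± 0.08 (SE, adjusted p = 0.00123). Only the rhodamine-negative sort of mouse 1, at 1807 CPM, reached into the rhodamine-positive range.

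Eno1 (ENSMUSG00000063524, chromosome 4, 150236721 to 150248879, plus strand), which makes phosphoenolpyruvate, stood at 2021 ± 317 CPM in rhodamine-positive and 1392.5 ± 219 CPM in rhodamine-negative sorts (SD, n = 6). Its log2 differences within the mice were the most even of the 7, from 0.46 to 0.70, and its fold change was 0.54 ± 0.08 on the log2 scale (SE, edgeR adjusted p = 0.000645). The groups overlapped because mouse 2 was low in both sorts, with 1445 CPM in the rhodamine-positive and 1044 CPM in the rhodamine-negative sort. Eno1b, a near-identical retrogene, held 4.64% as many counts as Eno1 over all libraries, and how the counting split their reads is not given in the sources used here. In mouse 2 it took 13.1% of the reads of both in the rhodamine-positive and 12.9% in the rhodamine-negative sort, against 2.54 to 3.50% in the other mice. Added together, Eno1 and Eno1b stood at 2109 ± 263 CPM in rhodamine-positive and 1457 ± 189 CPM in rhodamine-negative sorts, a mean log2 ratio of 0.53 ± 0.08 (SD, n = 6).

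Pkm (ENSMUSG00000032294, chromosome 9, 59656368 to 59679375, plus strand) makes pyruvate and ATP, and gene counts do not separate its spliced forms PKM1 and PKM2. It had a lowest and highest level of 2181 and 3044 CPM in rhodamine-positive sorts, against 1310 and 2105 CPM in rhodamine-negative sorts. Pkm was the 1 enzyme of the 7 whose groups did not overlap, as for 4.14% of all genes in this direction, and it had the highest log2 fold change of the 10, at 0.68 ± 0.09 (SE, edgeR adjusted p = 0.000243). Its mean was 2568 ± 363 CPM in rhodamine-positive and 1616 ± 299 CPM in rhodamine-negative sorts (SD, n = 6). Ldha (ENSMUSG00000063229, chromosome 7, 46841475 to 46855627, plus strand), which reduces pyruvate to lactate, stood at 2019 ± 337 CPM in rhodamine-positive and 1597 ± 278 CPM in rhodamine-negative sorts. Its log2 fold change was 0.34 ± 0.08 (SE, adjusted p = 0.00925), with the smallest difference in mouse 3 at 0.17, and in the unpaired fit it did not pass (adjusted p = 0.111). Ldha made up 66.7 ± 7.69% of Ldha and Ldhb transcripts per length in rhodamine-positive and 68.7 ± 10.9% in rhodamine-negative sorts, a difference smaller than the spread between mice.

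**Figure D4:**
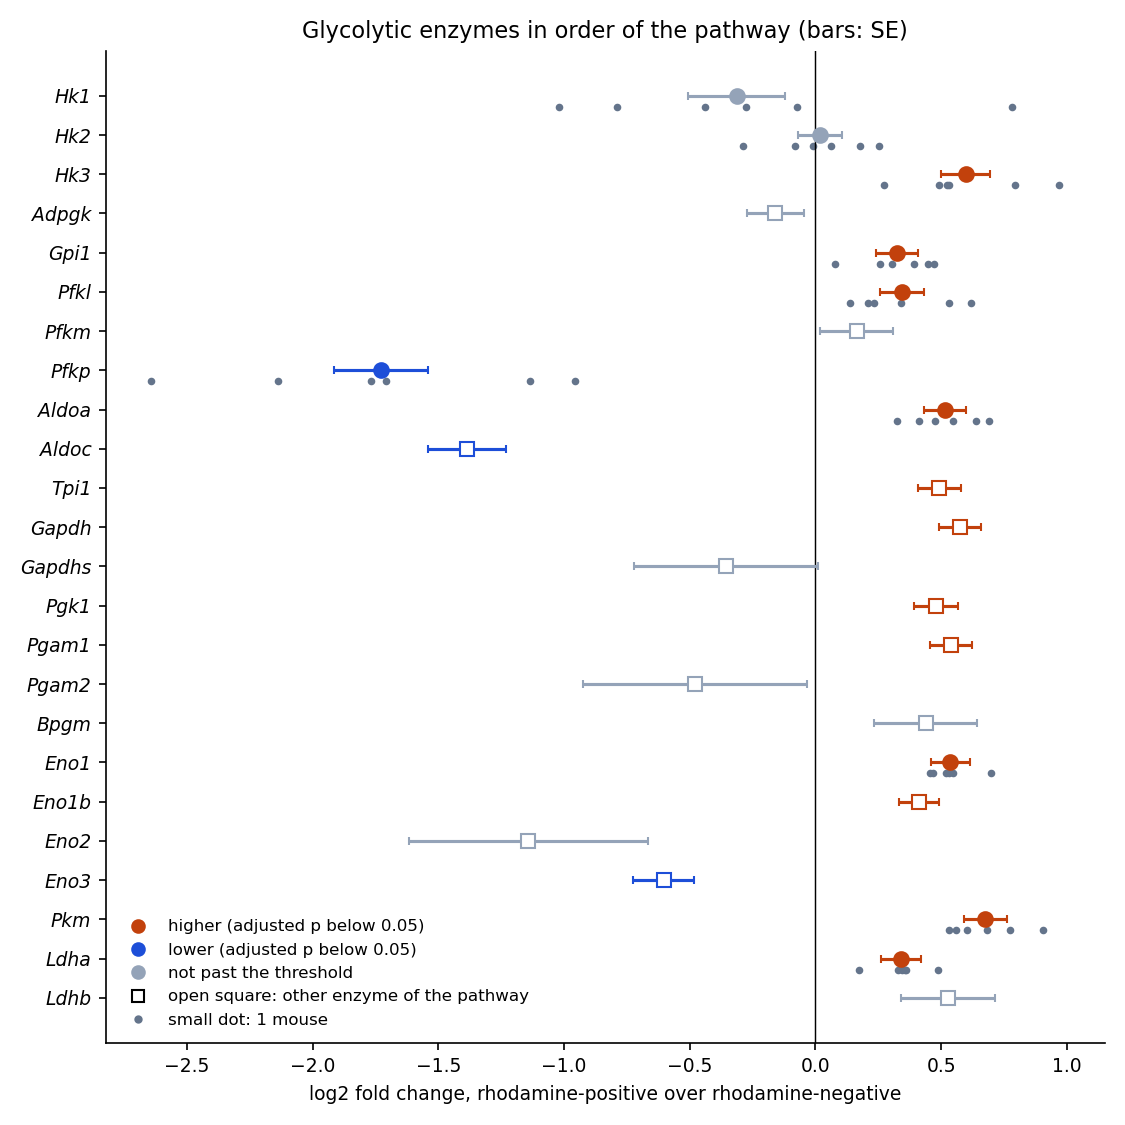
Log2 fold change with its standard error (horizontal axis, rhodamine-positive over rhodamine-negative) of the 10 enzymes (filled circles, with small dots for the log2 difference in each mouse) and of the other 14 glycolytic enzymes tested (open squares), in the order of the pathway. Hk3, Gpi1, Pfkl, Aldoa, Tpi1, Gapdh, Pgk1, Pgam1, Eno1, Eno1b, Pkm and Ldha lie between 0.32 and 0.68, and the transcripts called lower, Pfkp, Aldoc and Eno3, lie at -1.73, -1.39 and -0.60.

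Compared per length of the main transcript, 4 of the 10 enzymes stood well above the others in both sorts. Aldoa, Ldha, Pkm and Eno1 averaged 1283, 1112, 1056 and 997 CPM per kilobase in rhodamine-positive sorts and 906, 880, 664.5 and 687 CPM per kilobase in rhodamine-negative sorts. Over all 12 libraries they ranked 59, 69, 76 and 81 by level among the 15014 genes tested. Gpi1 and Pfkl followed at 166 and 89.2 CPM per kilobase in rhodamine-positive and 132 and 70.4 CPM per kilobase in rhodamine-negative sorts. Pkm and Eno1 changed places between the sorts, as did Pfkp and Hk3. Pfkp was in place 9 of 10 in rhodamine-positive sorts, at 13.8 CPM per kilobase, and in place 7 in rhodamine-negative sorts, at 49.3. Hk3 was in place 7 in rhodamine-positive sorts, at 43.3 CPM per kilobase, and in place 9 in rhodamine-negative sorts, at 29.0, close to Hk2 in place 8 at 29.2. Hk1 came last in both, at 7.07 CPM per kilobase in rhodamine-positive and 9.15 in rhodamine-negative sorts. Together the 10 enzymes took 0.744 to 1.07% of all raw counts in rhodamine-positive and 0.606 to 0.885% in rhodamine-negative sorts. Their summed TMM-scaled CPM was 1.30 to 1.47 times as high in the rhodamine-positive sort in each of the 6 mice. That ratio depends on the TMM scaling, which the shares of raw counts do not carry. Most of the sum was Aldoa, Eno1, Pkm and Ldha.

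The change between the sorts was compared between female and male mice by the edgeR interaction term. After adjustment 0 of the 10 enzymes passed, but so did 0 of all 15014 genes, and limma-voom gave the same. The adjusted test therefore does not set the enzymes apart from other genes. At an unadjusted p under 0.05 it was 0 of the 10, against 7.73% of all genes. The estimates for Pfkp and Hk1, female minus male, were -0.68 ± 0.34 and -0.64 ± 0.37 on the log2 scale (SE, adjusted p = 0.658 and 0.672). With 2 female mice these estimates are wide.

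The other enzymes of glycolysis, from a list of 20 of which 14 had enough counts, included 5 that rose and 2 that fell, with a median log2 fold change of 0.29, or 0.13 under library size scaling. The background for this and the lists that follow is 13.0% of all genes higher and 13.2% lower, 5.67% and 20.9% with library size alone, and 8.46% and 9.31% without the mouse as a block. Those that rose were the triose phosphate isomerase Tpi1 at 0.49 ± 0.09, the dehydrogenase Gapdh at 0.57 ± 0.08, the kinase Pgk1 at 0.48 ± 0.09, the mutase Pgam1 at 0.54 ± 0.08 and Eno1b at 0.41 ± 0.08 (SE). Housekeeping enzymes such as Gapdh have processed pseudogenes that can take part of their reads, so their levels are uncertain. Eno1b lost its call in the unpaired fit (edgeR adjusted p = 0.483), where 4 of the list were higher and 2 lower. Aldoc, the brain-type aldolase, fell by 1.39 on the log2 scale (SE 0.15), with 6.02 ± 1.86 CPM in rhodamine-positive and 16.0 ± 6.38 CPM in rhodamine-negative sorts. Eno3, the muscle-type enolase, fell by 0.60 (SE 0.12). These minor isozymes were a small part of the transcripts of their step, and protein was not measured. Aldoc made up 0.167% of aldolase transcripts per length in rhodamine-positive and 0.645% in rhodamine-negative sorts. Eno3 made up 1.13% of Eno1, Eno2 and Eno3 transcripts in rhodamine-positive and 2.47% in rhodamine-negative sorts. Ldhb, the heart-type lactate dehydrogenase, was at 0.53 ± 0.19 and did not pass (edgeR adjusted p = 0.0583). Among those under the count filter were Pklr, the liver pyruvate kinase, Hkdc1, Pgk2 and Ldhc.

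Of 16 regulators of phosphofructokinase, pyruvate dehydrogenase and gluconeogenesis, 13 were tested, 5 rose and 1 fell, with a median log2 fold change of 0.06 that was -0.10 with library size alone. Pfkfb3, whose product makes the phosphofructokinase activator fructose 2,6-bisphosphate, was at 204 ± 31.1 CPM in rhodamine-positive and 232 ± 28.4 CPM in rhodamine-negative sorts and did not pass (log2 fold change -0.20 ± 0.08, edgeR adjusted p = 0.0939). Its relative Pfkfb4 fell by 0.38 (SE 0.11, adjusted p = 0.0255), and Tigar, which lowers the same activator, rose by 0.47 ± 0.13. Pdk1, a kinase that holds pyruvate dehydrogenase inactive, rose by 0.41 ± 0.11, and Pcx, which carboxylates pyruvate, by 0.70 ± 0.15. G6pc3, a glucose 6-phosphatase, and Pck2, a phosphoenolpyruvate carboxykinase, rose by 0.53 ± 0.10 and 0.47 ± 0.12. With library size alone 2 regulators were higher and 3 lower, and without the mouse as a block 2 and 0.

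Of 10 genes of glucose uptake and lactate export, 4 rose and 0 fell, with a median of 0.20. The glucose transporter Slc2a1 (GLUT1) had 174 ± 35.4 CPM in rhodamine-positive and 168 ± 50.0 CPM in rhodamine-negative sorts (log2 fold change 0.08 ± 0.09, edgeR adjusted p = 0.531). The lactate transporters Slc16a1 and Slc16a3 rose by 0.82 ± 0.20 and 0.34 ± 0.09, and Bsg, which encodes their chaperone basigin, by 0.56 ± 0.09. Of 8 pentose phosphate genes, 2 rose, Pgd at 0.34 ± 0.08 and G6pdx at 0.34 ± 0.10, and none passed with library size alone. Of 11 genes of the glycogen and glucose phosphate branch, 4 rose, led by the lysosomal glucosidase Gaa at 0.80 ± 0.11 and the phosphoglucomutase Pgm2 at 0.59 ± 0.09, and 0 fell. With library size alone, and likewise without the mouse as a block, 2 genes of the uptake and export list and 2 of the glycogen list passed.

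Of 18 hypoxia-induced genes that encode no glycolytic enzyme, 17 were tested, 4 rose and 3 fell, beside 13.0% higher and 13.2% lower among all genes. Their median was 0.03, against 0.34 for the 10 enzymes, and with library size alone it was -0.13, against 0.18 for the 10 enzymes. P4ha1 and P4ha2, subunits of the collagen prolyl hydroxylase, rose by 0.45 ± 0.08 and 0.69 ± 0.15, Hif1a by 0.34 ± 0.11 and the mitophagy receptor Bnip3l by 0.25 ± 0.08. The growth factor Vegfa, Ndrg1 and the mTOR inhibitor Ddit4 fell by 0.79, 1.00 and 1.98 on the log2 scale, and Ddit4 had at most 128 counts in a library. With library size alone 2 were higher and 5 lower, beside 5.67% and 20.9% of all genes, and without the mouse as a block 1 and 1. Of 20 genes of the tricarboxylic acid cycle and pyruvate dehydrogenase, 10 rose and 1, the malate dehydrogenase Mdh2, fell by 0.59 (SE 0.11), with 386 ± 24.8 CPM in rhodamine-positive and 591 ± 145 CPM in rhodamine-negative sorts. Their median was 0.27, and with library size alone 2 were higher and 2 lower. Several of the enzymes are targets of the hypoxia factor HIF-1 in the literature, so the lists are kept apart by what their genes encode and not by how they are controlled. Whether the lists differ from each other was not tested.

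**Figure D5:**
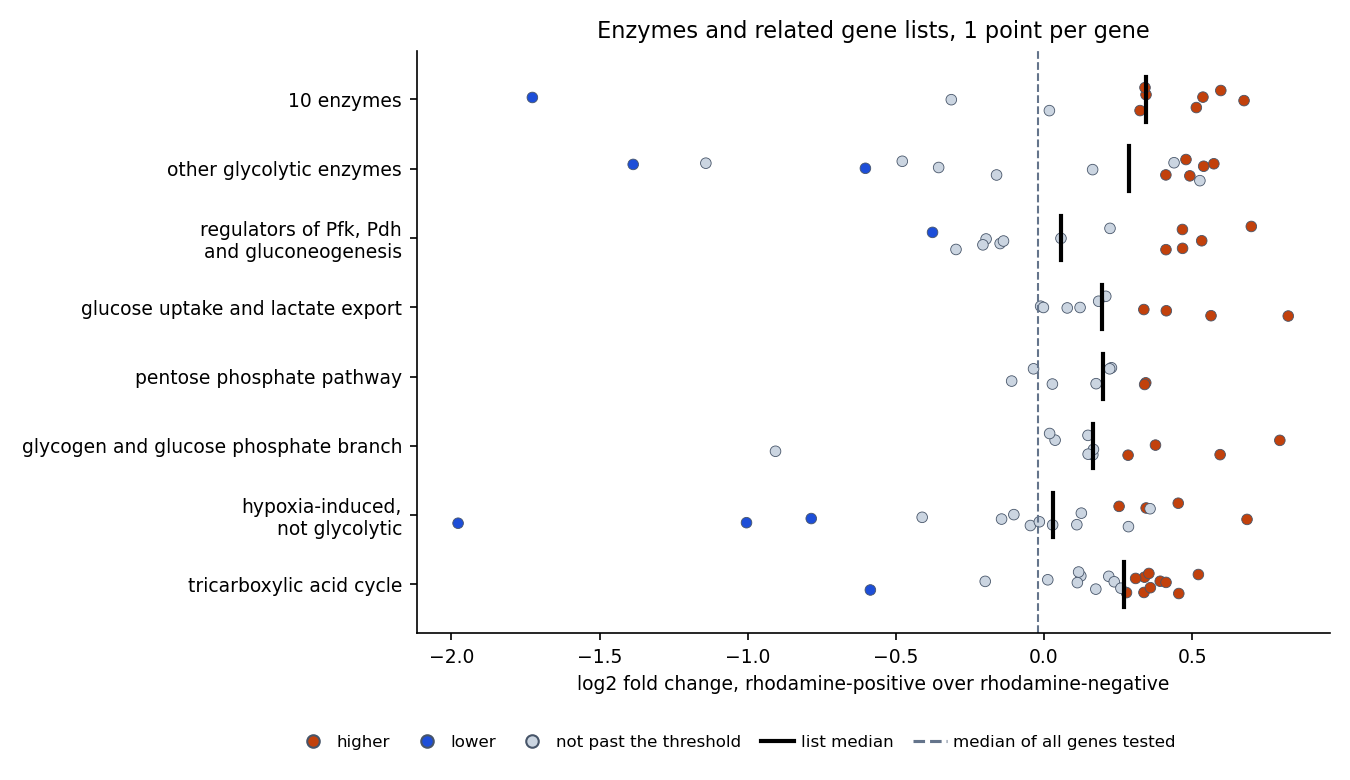
Log2 fold change (horizontal axis, rhodamine-positive over rhodamine-negative) of each gene tested in the 10 enzymes and in 7 related lists, 1 point per gene, red where called higher, blue where called lower and grey where not past the threshold. The black bar is the list median, 0.34 for the 10 enzymes and 0.03 for the hypoxia-induced genes, and the dashed line is the median of all genes tested, -0.02.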

How the data were processed

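Polyadenylated RNA of 12 libraries (6 rhodamine-positive and 6 rhodamine-negative sorts) was sequenced on an Illumina HiSeq instrument, and all libraries carry the same batch label. The authors deposited raw read counts per gene as a table and as 1 file per library, which held the same values in 12 of 12 cases. They also deposited a table of log2 normalized values for 10605 genes, which equal the log2 CPM of the counts plus a constant per library of -0.107 to 0.175. The submitters' processing notes name build mm10, HISAT2 2.1.0, featureCounts 1.4.4, and also edgeR, limma, cutadapt and bcl2fastq 2.17. The role and settings of each tool, the strand setting among them, are not given in the sources used here. Without the strand setting, reads of genes that overlap on opposite strands cannot be told apart. Gpi1 shares 741 exonic bases in this way with the lincRNA Gm26762 (955 to 1840 counts), and Pfkp shares 748 with Pitrm1 (461 to 785 counts). Pkm shares 767 with Gm49759 (71 to 306 counts) on the same strand, where that setting would not separate the reads.

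The deposited counts were tested as they stand. Of 54532 genes, 35308 had a count, and 15014 passed filterByExpr (minimum count 10, minimum total 15), holding 99.6 to 99.8% of the counts per library. Genes were tested in R 4.3.3 by quasi-likelihood (edgeR 4.0.16) with TMM scaling, the mouse as a block, adjustment over all genes tested and a threshold of 0.05. SE is the size of the log2 fold change over the root of F. CPM are TMM-scaled, and log2 CPM used a prior count of 2. A level per length divides by the transcript with the longest coding sequence in GENCODE vM21 (mm10), and positions are from the same annotation. A second row with the symbol Aldoa (0 to 11 counts) was not used. All 10 enzymes are described whatever their values. Some genes of the other lists are not reported here by name. The members and lists were chosen with earlier results of these data known.

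The animal number in the labels pairs the sorts. Deviations from the group means correlated across genes (which are not independent replicates) between both sorts of each mouse, from mouse 1 to mouse 6, at r = 0.226, 0.207, 0.289, 0.0775, 0.302 and 0.450, against at most 0.148 to 0.187 with another mouse, so mouse 4 was not matched best by its own number. No library was a copy of another (lowest chi-square per degree of freedom 20.8 in rhodamine-positive and 17.5 in rhodamine-negative sorts). Alternatives were DESeq2 1.42.0, limma 3.58.1 (voom, and on the deposited log2 table), other scalings, filters and thresholds, an offset for gene length and GC content, male mice alone, no block, and each mouse left out.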

Additional observations from a re-analysis of the deposited data

Results flagged for a closer look

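Of 34 groups of 6 values examined among the enzymes and isozyme comparisons, 5 held a sample set far apart from the others, and chance alone gives such a flag in about 0.05 of groups. Hk3 stood apart in mouse 6 in both sorts, at 230.6 CPM in the rhodamine-positive and 164 CPM in the rhodamine-negative sort. Aldoa was highest in the rhodamine-positive sort of mouse 1, at 2404 CPM. The log2 difference of Eno1 between the sorts, rhodamine-positive minus rhodamine-negative, was largest in mouse 4, at 0.70. The change of Hk3 minus that of Hk2 was smallest in mouse 2, at 0.022 on the log2 scale, while the other 5 mice lay at 0.54 to 0.81.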

How the results depend on the processing

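No called enzyme or isozyme difference changed direction under the alternatives run, while Hk2, which passed in none, ran from -0.14 to 0.08 on the log2 scale. Called higher were 7 of the 10 enzymes, 4 with library size alone (Hk3, Aldoa, Eno1 and Pkm), 3 without the mouse as a replicate block (Aldoa, Eno1 and Pkm), and 7 without any 1 mouse (range 7 to 7). Called lower were 1 to 2 when each mouse was left out, 2 without mouse 4. Over all genes, 1955 were called higher and 1986 lower. The counts were 852 and 3142 with library size alone, 1005 and 1222 in male mice alone, 908 and 1033 at a threshold of 0.01, and 1257 to 1780 and 1421 to 1820 when each mouse was left out, fewest higher without mouse 3. The number higher was 1240 with limma on the deposited log2 table, which holds fewer genes, and 1270 without the pairing. Gpi1 and Pfkl also miss the threshold of 0.01. Pfkp, Aldoa, Eno1 and Pkm passed under all 18 alternatives, with a highest adjusted p of 0.00233, 0.0154, 0.0158 and 0.00451. Hk1 and Hk2 had adjusted p-values of 0.0271 to 0.794 and 0.245 to 0.983. With each mouse left out, the isozyme differences were 0.15 to 0.53 for Hk2 minus Hk1, 0.68 to 1.08 for Hk3 minus Hk1, 0.53 to 0.69 for Hk3 minus Hk2 and -2.23 to -1.83 for Pfkp minus Pfkl, as values, since 5 mice cannot reach the threshold. Permuted without the pairing, their exact adjusted p-values were 0.307, 0.00866, 0.0144 and 0.00866. The cause of a lost call was not tested. Depth was lowest for Hk1, at 294 to 909 counts.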
